A study of Mus musculus with 12 samples.

Results

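A set of 41 genes of T and natural killer (NK) lymphocytes was read in RNA-seq libraries of mouse tongue, to ask how their levels compared between gallic acid (GA) and vehicle. The genes were chosen by name, from the receptors, signalling proteins, transcription factors and effector molecules that mark these cells. Earlier results of these data were known when they were chosen. Of the 41 genes listed, 40 had a named row, and 35 of these reached a mean of at least 0.1 FPKM (reads scaled by exon length and by library total) and were tested among 16847 genes. Trdc, the constant chain of the gamma-delta T cell receptor, was not analysed here. The vehicle group held 6 libraries from C57BL/6 mice that drank 4-nitroquinoline-1-oxide (4NQO), a carcinogen of the oral mucosa, at 100 µg/mL for 16 weeks. The GA group held 6 libraries from mice given the same 4NQO and gavaged with GA, a plant phenolic acid, at 100 mg/kg on 5 days per week from week 4, while control mice were gavaged with a methyl cellulose vehicle. Mice were 5 weeks old when purchased, no engineered allele is given, the animal behind each library is not stated, and every group carried the carcinogen, so there was no untreated tongue for reference. The labels call the tissue tumor and tumor-associated, and it was sequenced whole, without a sort for lymphocytes.

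T cells recognise peptides through a T cell receptor whose signal is carried by the CD3 chains (Cd3d, Cd3e, Cd3g) and the zeta chain Cd247. CD4 and CD8 coreceptors bring the kinase Lck to the receptor, Lck activates Zap70, and a second signal from CD28, CD27 or ICOS sustains the response. Activated cells then express inhibitory receptors such as PD-1 (Pdcd1) and CTLA-4, which restrain them. CD8 T cells and NK cells kill by releasing perforin (Prf1) and granzymes, a family of serine proteases. In carcinogen-exposed oral mucosa these cells share the tissue with many more epithelial, muscle and myeloid cells, so their transcripts form a small part of a bulk library.

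Libraries held 18039869 to 21772333 reads (vehicle) and 21235179 to 25190565 reads (GA), as recovered from the values, and were scaled to one another. No gene was called with limma at the study's limits (adjusted p below 0.1, absolute log2 fold change of at least 0.58), which is 0% of 16847 genes, and 371 genes (2.20%) had an unadjusted p below 0.05. Reads from Y-linked genes were present in vehicle libraries 1 to 4 and GA library 1 and at 0 in the other 7, so sex was unevenly divided between the groups, and a difference between groups and one between sexes are partly mixed. Values within these 7 Y-negative libraries (2 vehicle, 5 GA) are given beside each tested member whose fold change is printed, for Rhoh, and for the sums over roles.

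Most of the members were scarce. Of the 35 tested, 31 had means below 1 FPKM, the median of the means was 0.411 FPKM, and the range was 0.129 (Klrk1) to 4.57 FPKM (Tcf7). Of these, 17 members were above 0.1 FPKM in all 12 libraries, namely Cd3g, Cd247, Cd2, Cd4, Cd5, Icos, Lck, Zap70, Tcf7, Lef1, Il7r, Foxp3, Il2ra, Pdcd1, Lag3, Havcr2 and Gzmm. Another 18 passed as a mean but not in every library, among them Cd3d, Cd3e, Cd28, Ctla4, Gzmb and Ccl5, each above 0.1 FPKM in 11 libraries. The 5 members under the limit were Rhoh, Prf1, Ifng, Ncr1 and Gzmk. At this depth a single read was worth 0.0254 FPKM for the short gene Cd3d and 0.00442 FPKM for the long gene Rhoh, so levels of 0.1 FPKM rested on few reads.

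**Figure D1:**
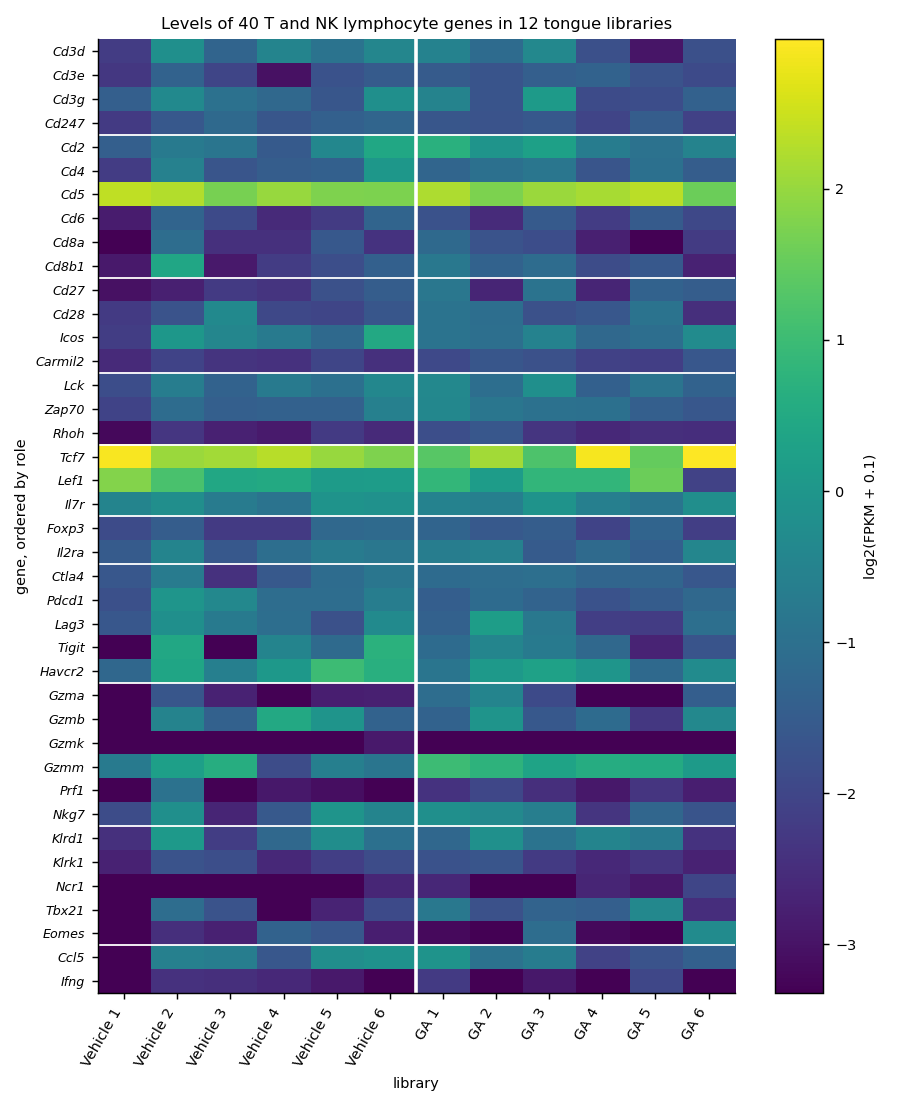
Heat map of log2(FPKM + 0.1) for the 40 genes with a row (vertical axis, ordered by role, roles parted by white lines) in the 6 vehicle and 6 GA libraries (horizontal axis). Cd5, Tcf7 and Lef1 stand out as bright rows, and the first vehicle library is the darkest column, with 11 members at 0 reads.

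Vehicle library 1 stood apart in these genes. It was the lowest of all 12 libraries for 19 of the 35 tested members and had no read for 11 of the 40. Leaving out Cd5, Tcf7 and Lef1, members collected 280 reads there against 603 to 1048 in the other libraries, although its total depth was not low (20365792 reads). Fold changes and sums were therefore also computed without it.

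Over the tested members, 20 were higher and 15 lower with GA, which is 57.1% higher, where 51.4% of all tested genes were higher. Their median log2 fold change was 0.04, against 0.01 for all tested genes. None was called, and their adjusted p lay at 0.999 in limma. Of the members, 1 (Gzmm) had an unadjusted p below 0.05 in limma (2.86% of 35, against 2.20% of all genes), and 2 members, Gzmm and Carmil2, had an exact permutation p below 0.05 over the 924 ways to divide the libraries, against 2.50% of all genes. In no member did the 2 groups fail to overlap, as 0.0594% of all genes did. All 6 GA libraries lay above the vehicle median for Gzmm and Carmil2 (3.24% of all genes did so) and below it for Pdcd1 (2.80% of all genes). The list includes Carmil2, Cd27, Gzmm and Rhoh, which the study reported as higher with GA from these data. The shares of members set beside those of all genes are therefore descriptions and not tests. The p-values of Carmil2, Cd27, Gzmm and Rhoh are likewise no independent support for that report. Tongue RNA cannot show whether a lower level means fewer lymphocytes or less RNA in each.

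**Figure D2:**
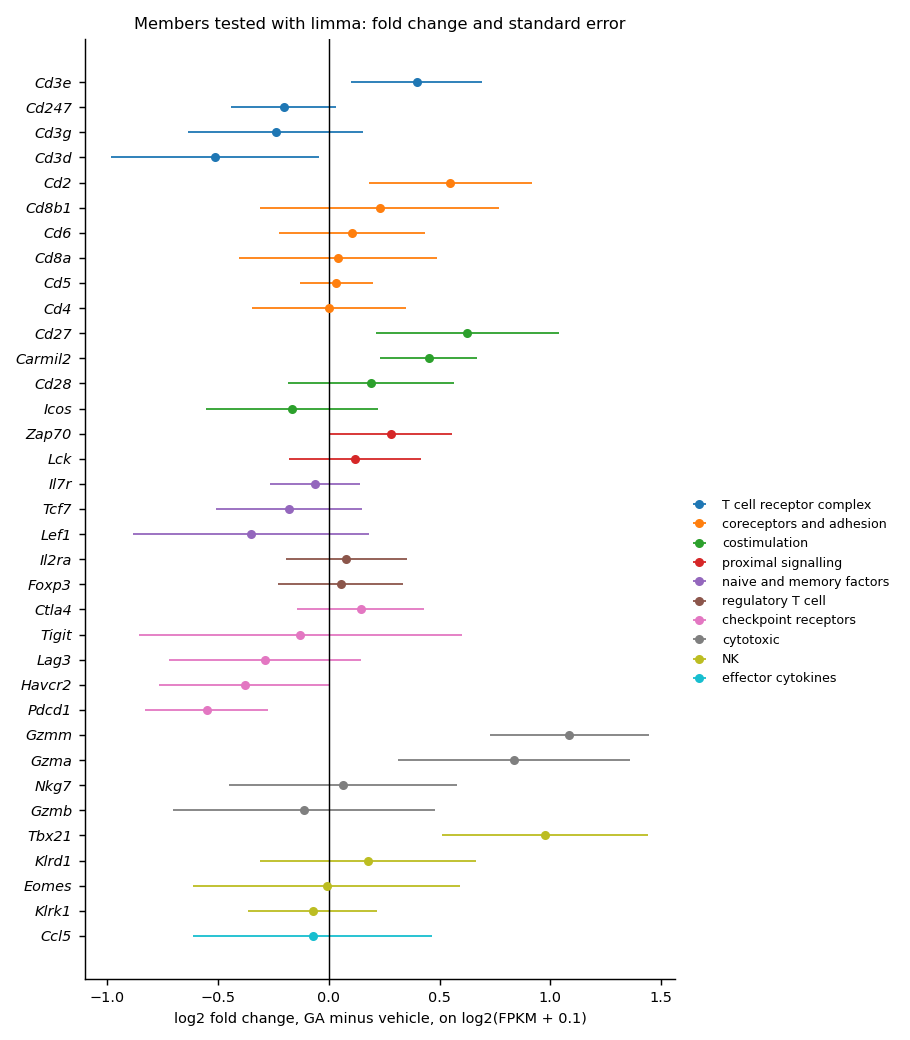
Log2 fold change of GA over vehicle (horizontal axis, difference of mean log2(FPKM + 0.1)) for the 35 tested members, grouped by role and coloured, with bars of 1 standard error from limma. Gzmm at 1.09 is the largest positive value and Pdcd1 at -0.55 the largest negative value, and most bars cross 0.

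The 4 chains of the T cell receptor complex differed in the direction of their means. Their summed level ran from 0.604 to 2.02 FPKM in vehicle libraries (median 1.21) and from 0.676 to 2.15 FPKM with GA (median 0.901), with means of 1.36 ± 0.549 and 1.18 ± 0.595 FPKM (SD, n = 6 each). The groups covered nearly the same range. The log2 ratio of the sums was -0.20, and it was -0.53 in the Y-negative libraries, -0.36 without vehicle library 1, -0.46 without GA library 3 and -0.06 without vehicle library 2. Cd3e, the CD3 epsilon chain on chromosome 9 (GRCm38, 44998740 to 45009627), was at 0.0209 to 0.294 FPKM in vehicle libraries (median 0.175) and at 0.167 to 0.297 FPKM with GA (median 0.234). The low end of the vehicle range was library 4, with 2 reads. Its log2 fold change was 0.40 (SE 0.29, unadjusted p = 0.201 in limma, exact permutation p = 0.160), and it was 0.02 in the Y-negative libraries and 0.19 without vehicle library 4.

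Cd3d, the delta chain, went the other way in the means. It ran from 0.117 to 0.786 FPKM in vehicle libraries (median 0.521) and from 0.0271 to 0.665 FPKM with GA (median 0.278), the lowest being GA library 5 with 1 read. Its log2 fold change was -0.51 (SE 0.47, unadjusted p = 0.297 in limma, exact permutation p = 0.331). It was -0.93 in the Y-negative libraries, 0.52 in the Y-positive ones (4 vehicle, 1 GA) and -0.20 without GA library 5, so neither its size nor its direction held across these subsets. Cd3g, which starts 1355 bases from Cd3d on the opposite strand of chromosome 9, had means of 0.455 ± 0.233 FPKM in vehicle and 0.406 ± 0.322 FPKM in GA libraries (SD, n = 6 each). The zeta chain Cd247 had means of 0.251 ± 0.0834 and 0.201 ± 0.0510 FPKM, but 60.3% of its exon bases overlap other genes and its reads are less certain. Across the 12 libraries, Spearman's rho with Cd3e was 0.41 for Cd3d, 0.15 for Cd3g and 0.03 for Cd247, at 1 to 77 reads per gene and library for the 4 chains.

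The gene for the second constant region of the receptor's beta chain, Trbc2, is no member but is part of the same complex. It ran from 4.76 to 21.5 FPKM in vehicle libraries and from 2.50 to 39.9 FPKM with GA, far above the CD3 chains. The ratio of Trbc2 to Cd3e lay between 9.89 and 460 in single libraries. The highest ratio was in vehicle library 4, where Cd3e had 2 reads. Whether Trbc2 follows the CD3 chains over the libraries was not tested. Cd3e did not track Ptprc (CD45, on all leukocytes). Pearson's r between Cd3e and Ptprc was 0.01 and Spearman's rho 0.04 (n = 12, permutation p = 0.987 and 0.903, adjusted over 9 pairs 0.987 and 0.903). Without vehicle libraries 1 and 4, r was 0.01.

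Coreceptors and adhesion receptors were dominated by Cd5, an inhibitory receptor of T cells and of some B cells. Cd5 made up 70.2% of the summed level of its 6 genes. It ran from 3.16 to 5.09 FPKM in vehicle libraries (median 3.62) and from 2.88 to 4.92 FPKM with GA (median 4.19), with 305 to 497 reads per library, and its coefficient of variation was 19.4%, the smallest of the members. Cd6, the related receptor whose gene lies 50339 bases away on chromosome 19, ran from 0.0397 to 0.309 FPKM in vehicle libraries (median 0.140) and from 0.0710 to 0.251 FPKM with GA (median 0.178). The level of Cd5 was thus 10.5 to 128 times that of Cd6, with the highest ratio in vehicle library 1, where most other members were lowest. Cd5 did not fall there, at 5.09 FPKM, the highest of the 12 libraries. Which cells gave these reads was not tested.

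CD4 and CD8 were present well below 1 FPKM. Cd4 had means of 0.395 ± 0.297 FPKM in vehicle and 0.342 ± 0.0943 FPKM in GA libraries (SD, n = 6 each), and Cd8a 0.145 ± 0.137 and 0.149 ± 0.125 FPKM. Cd8a had no read in vehicle library 1 and GA library 5. The mean of Cd4 was 2.73 times that of Cd8a in vehicle and 2.29 times in GA libraries. Cd8b1, the CD8 beta chain, was at most 0.285 FPKM in 5 vehicle libraries and at 1.22 FPKM in vehicle library 2, and at 0.0516 to 0.479 FPKM with GA. Cd2, an adhesion receptor of T and NK cells, ran from 0.247 to 1.26 FPKM in vehicle libraries (median 0.474) and from 0.424 to 1.49 FPKM with GA (median 0.736). Its log2 fold change was 0.55 (SE 0.37, unadjusted p = 0.160 in limma, exact permutation p = 0.186), and within the Y-negative libraries it was -0.40. With presence of Y-linked reads as a term in a fit of all 12 libraries, it was 0.39. Without Cd5, the sum over receptor complex, coreceptors, costimulation and proximal signalling (16 genes) was 4.88 ± 2.36 FPKM in vehicle and 5.16 ± 1.78 FPKM in GA libraries, a difference far below their spread. The log2 ratio of this sum was 0.08, and it was -0.38 in the Y-negative libraries and -0.09 without vehicle library 1. For single roles, the log2 ratio was 0.07 for coreceptors and adhesion with Cd5, 0.11 for costimulation and 0.30 for proximal signalling. In the Y-negative libraries these were 8.8e-05, -0.23 and -0.22.

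Among costimulatory genes, the study names Carmil2 and Cd27. Carmil2, a capping protein regulator that links CD28 to its signalling, lies on chromosome 8 (105686274 to 105698187). It was scarce, at 0.0673 to 0.148 FPKM in vehicle libraries (median 0.0893) and 0.125 to 0.227 FPKM with GA (median 0.179), from 7 to 33 reads per library. The 6 GA libraries lay above the vehicle median but shared the interval from 0.125 to 0.148 FPKM with the upper vehicle libraries. The log2 fold change was 0.45 (SE 0.22, unadjusted p = 0.0606 in limma, adjusted p = 0.999, exact permutation p = 0.0152), and 0.37 in the Y-negative libraries. Of its exon bases, 22.0% overlap Acd on the other strand, and whether counting used strand is not given in the sources used here.

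Cd27, a receptor of the TNF family, ran from 0.0228 to 0.261 FPKM in vehicle libraries (median 0.101) and from 0.0559 to 0.466 FPKM with GA (median 0.278). GA libraries fell in 2 sets, with GA 2 and GA 4 at 3 reads each and the other 4 at 14 to 24 reads. Its log2 fold change was 0.62 (SE 0.41, unadjusted p = 0.155 in limma, exact permutation p = 0.160), and -0.20 in the Y-negative libraries. With presence of Y-linked reads as a term in a fit of all 12 libraries, it was 0.51. Cd28 and Icos, the classical costimulatory receptors, had means of 0.257 ± 0.220 and 0.638 ± 0.420 FPKM in vehicle and of 0.291 ± 0.145 and 0.478 ± 0.150 FPKM in GA libraries (SD, n = 6 each). The high vehicle value of Cd28 was 1 library, number 3, at 0.700 FPKM.

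In proximal signalling, Lck and Zap70 were each measured in every library. Lck had means of 0.431 ± 0.173 FPKM in vehicle and 0.476 ± 0.205 FPKM in GA libraries. Zap70 ran from 0.141 to 0.576 FPKM in vehicle libraries (median 0.287) and from 0.228 to 0.660 FPKM with GA (median 0.410). Its log2 fold change was 0.28 (SE 0.28, unadjusted p = 0.334 in limma, exact permutation p = 0.303). It was -0.20 in the Y-negative libraries and 0.13 without vehicle library 1. With presence of Y-linked reads as a term in a fit of all 12 libraries, it was 0.27. Rhoh, a GTPase-deficient small G protein needed for receptor signalling, also named by the study, stayed below the limit for testing. It was at 0.0102 to 0.109 FPKM in vehicle libraries (median 0.0583) and at 0.0667 to 0.227 FPKM with GA (median 0.0879), or 80 reads over the vehicle and 173 over the GA libraries. All 6 GA libraries exceeded the vehicle median, 2 of them (GA 1 and GA 2) clearly above the others, and the groups overlapped. The difference of mean log2 levels was 0.44 (exact permutation p = 0.0823), and it was 0.11 in the Y-negative libraries.

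The factors of naive and memory T cells behaved unlike the receptors. Tcf7 (TCF-1) and Lef1, HMG-box partners of beta-catenin, are also expressed outside lymphocytes, Lef1 among others in epithelial appendages. Tcf7 ran from 3.29 to 7.53 FPKM in vehicle libraries (median 4.11) and from 2.24 to 7.84 FPKM with GA (median 3.49). Its highest vehicle value was again library 1, where the summed level of the receptor complex was lowest. Lef1 ran from 1.01 to 3.40 FPKM in vehicle libraries (median 1.30) and from 0.137 to 2.89 FPKM with GA (median 1.67), with 32 reads in GA library 6 against 195 to 568 in the others. GA library 6 was the library with the highest Krt14, a keratin of basal epithelium, at 7888 FPKM, where the others had 1233 to 6874 FPKM.

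Lef1 and Krt14 ran against each other. On log2 levels Pearson's r was -0.70 and Spearman's rho -0.75 (n = 12, permutation p = 0.00935 and 0.00660), which became adjusted p of 0.0598 and 0.0594 over 9 gene pairs. Without vehicle library 1 and GA library 6 r was -0.80, and it was -0.68 within vehicle and -0.91 within GA libraries. Il7r, the receptor for the survival cytokine IL-7, stayed between 0.430 and 0.852 FPKM in all 12 libraries. The sum of the 3 genes was 7.01 ± 2.31 FPKM in vehicle and 6.64 ± 2.08 FPKM in GA libraries (SD, n = 6 each). Its log2 ratio of -0.08 became 0.12 without vehicle library 1 and 0.36 in the Y-negative libraries.

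**Figure D3:**
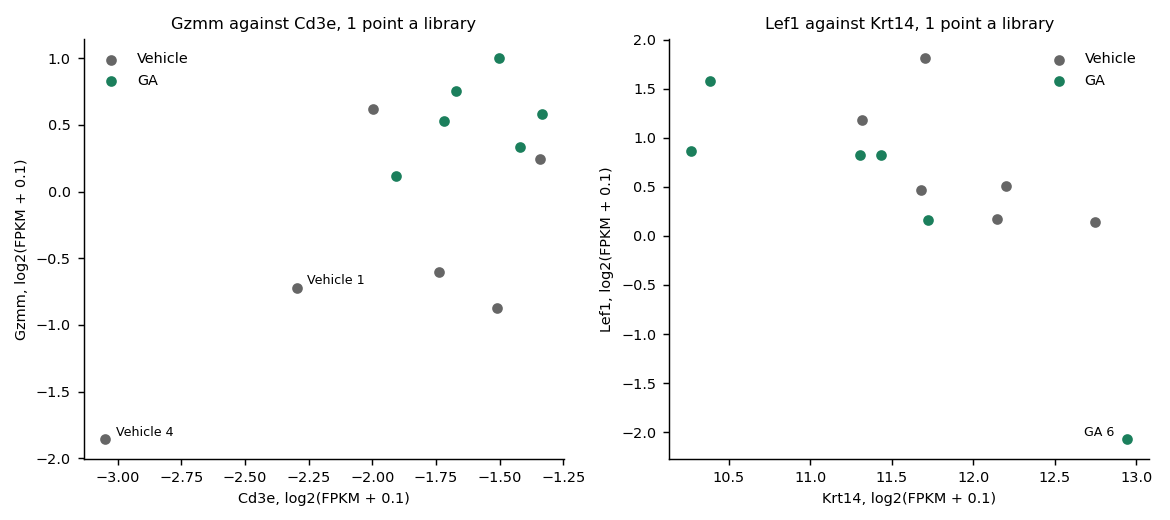
Left, Gzmm against Cd3e, and right, Lef1 against Krt14, as log2(FPKM + 0.1), 1 point for each of the 12 libraries, coloured by group. On the left, vehicle libraries 1 and 4 (named) carry the relation, with r falling from 0.71 to 0.02 without them; on the right, Lef1 decreases as Krt14 increases in both groups.

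Regulatory T cell genes were even between the groups. Foxp3, the factor that defines these cells, had means of 0.225 ± 0.109 FPKM in vehicle and 0.230 ± 0.0806 FPKM in GA libraries, and Il2ra (CD25) 0.411 ± 0.152 and 0.441 ± 0.165 FPKM (SD, n = 6 each). The 2 groups overlapped over most of their ranges. The log2 ratio of the sum of both genes was 0.08, and -0.39 in the Y-negative libraries. For Foxp3, 31.5% of exon bases overlap other genes.

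Of the 5 checkpoint receptors, 4 had lower means with GA and none passed the test. Their sum ran from 0.977 to 4.74 FPKM in vehicle libraries (median 2.88) and from 1.08 to 3.38 FPKM with GA (median 1.88), with means of 2.99 ± 1.51 and 2.12 ± 0.822 FPKM (SD, n = 6 each, log2 ratio -0.49). Only 1 GA library lay above the vehicle median, and every GA library lay inside the vehicle range. In the Y-negative libraries the log2 ratio was -0.85. Without vehicle library 1 it was -0.68, without vehicle library 2 it was -0.32, and without vehicle library 6, which was high in Tigit and Havcr2, it was -0.31. Vehicle libraries 2 and 6 had the highest sums, and these 2 libraries were also highest for the T cell attracting chemokines Cxcl9 (15.3 and 9.22 FPKM) and Cxcl10 (12.02 and 13.5 FPKM, against at most 4.10 FPKM in the other 10).

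Pdcd1 (PD-1, chromosome 1, 94038305 to 94052553) ran from 0.192 to 0.881 FPKM in vehicle libraries (median 0.456) and from 0.203 to 0.364 FPKM with GA (median 0.285). Every GA library was below the vehicle median, but vehicle library 1, at 0.192 FPKM, was lower than all of them. The log2 fold change was -0.55 (SE 0.28, unadjusted p = 0.0708 in limma, adjusted p = 0.999, exact permutation p = 0.0714), and it was -0.50 in the Y-negative libraries and -0.74 without vehicle library 1. Havcr2 (TIM-3), which macrophages and dendritic cells also express, had means of 1.07 ± 0.588 and 0.748 ± 0.304 FPKM, and its r with the macrophage receptor Csf1r was 0.21 (rho 0.26, n = 12, permutation p = 0.517 and 0.418, adjusted 0.582 and 0.470), while r was 0.68 within vehicle and -0.33 within GA libraries and 0.003 without vehicle library 1 and GA library 5. Lag3 had means of 0.468 ± 0.244 and 0.407 ± 0.342 FPKM, and Tigit 0.629 ± 0.650 and 0.350 ± 0.205 FPKM. Ctla4 was the one not lower, at 0.317 ± 0.161 and 0.332 ± 0.0597 FPKM (SD, n = 6 each).

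The cytotoxic genes were summed over 6 genes and ran from 0.682 to 3.13 FPKM in vehicle libraries (median 1.79) and from 1.87 to 3.90 FPKM with GA (median 2.19), with means of 1.86 ± 0.826 and 2.58 ± 0.871 FPKM (SD, n = 6 each, log2 ratio 0.47). All 6 GA libraries lay above the vehicle median, while vehicle libraries 2 and 5 lay among the GA libraries. The log2 ratio was 0.35 in the Y-negative libraries, 0.30 without vehicle library 1, 0.32 without GA library 2 and 0.68 without vehicle library 2. Nearly all of the difference in means lay in Gzmm. Without it, a choice made after its values were seen, the sum was 1.16 ± 0.762 FPKM in vehicle and 1.18 ± 0.684 FPKM in GA libraries, with 2 of 6 GA libraries above the vehicle median.

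Gzmm, granzyme M, a protease of NK cells and innate-like T cells, lies on chromosome 10 (79689020 to 79695261, plus strand) and overlaps no other gene. Vehicle libraries 1 to 6 held 0.506, 1.08, 1.44, 0.176, 0.557 and 0.446 FPKM, and GA libraries 1 to 6 held 1.90, 1.59, 1.16, 1.39, 1.34 and 0.987 FPKM. The GA libraries were close together, 4 vehicle libraries lay below all of them, and vehicle libraries 2 and 3 lay within their range. The log2 fold change was 1.09 (SE 0.36, unadjusted p = 0.00986 in limma, adjusted p = 0.999, exact permutation p = 0.0195), the largest among the members. In reads, GA libraries held 38 to 59 and vehicle libraries 6 to 41. It was 1.20 in the Y-negative libraries, and between 0.82 and 1.32 when single libraries were left out. Gzmm and Cd3e had a Pearson's r of 0.71 (n = 12, permutation p = 0.0133, adjusted 0.0598) and a Spearman's rho of 0.44 (permutation p = 0.152, adjusted 0.382), and r fell to 0.02 without vehicle libraries 1 and 4. Within vehicle and within GA libraries r was 0.65 and 0.41.

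The other killing molecules differed less between the groups or rested on few reads. Gzmb, granzyme B, had means of 0.557 ± 0.466 FPKM in vehicle and 0.421 ± 0.286 FPKM in GA libraries (SD, n = 6 each), and how far its sequence relatives bear on its uniquely mapped reads was not tested. Gzmb and the mast cell protease Cpa3 had r = -0.27 and rho = -0.38 (n = 12, permutation p = 0.386 and 0.227, adjusted 0.496 and 0.382; -0.30 without vehicle libraries 1 and 4). Gzma, granzyme A, was at 0 to 0.220 FPKM in vehicle libraries (median 0.0463) and at 0 to 0.618 FPKM with GA (median 0.218), from 7 reads over the vehicle and 33 over the GA libraries. There were 4 libraries, 2 of each group, with no read of it. Its log2 fold change was 0.84 (SE 0.52, unadjusted p = 0.134 in limma, exact permutation p = 0.158), 0.68 in the Y-negative libraries and 0.55 without GA library 2. Prf1, perforin, was below the limit, at 23 reads over the vehicle libraries, 20 of them in library 2, and 29 over the GA libraries. All 6 GA libraries, at 0.0336 to 0.153 FPKM, exceeded its vehicle median of 0.00877 FPKM, and the difference of mean log2 levels was 0.33 (exact permutation p = 0.481). Gzmk had 1 read in all 12 libraries. Nkg7, a granule protein, had means of 0.456 ± 0.341 and 0.442 ± 0.273 FPKM.

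The 3 stretches of genomic sequence before start sites are shown, for the member with the largest positive difference (Gzmm), the one with the largest negative difference (Pdcd1), and Tbx21, a T-box factor of cytotoxic cells described next. They are the 250 bases before a RefSeq start on GRCm38.p6, written 5′ to 3′ on the strand of the gene, and capitals mark matches to AGGAAG (the core of ETS sites) or TGTGGT (RUNX sites) on either strand.
Gzmm, chr10:79688770-79689019, plus strand: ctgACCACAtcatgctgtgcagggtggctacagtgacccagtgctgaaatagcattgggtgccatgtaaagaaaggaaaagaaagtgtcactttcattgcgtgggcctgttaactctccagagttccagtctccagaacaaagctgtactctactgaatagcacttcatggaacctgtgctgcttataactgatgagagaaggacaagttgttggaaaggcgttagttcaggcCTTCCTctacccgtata
Pdcd1, chr1:94052554-94052803, minus strand: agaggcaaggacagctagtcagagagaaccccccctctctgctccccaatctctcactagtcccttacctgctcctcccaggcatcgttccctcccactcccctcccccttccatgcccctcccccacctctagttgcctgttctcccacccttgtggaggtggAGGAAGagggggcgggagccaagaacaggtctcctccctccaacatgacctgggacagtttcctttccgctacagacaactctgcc
Tbx21, chr11:97115332-97115581, minus strand: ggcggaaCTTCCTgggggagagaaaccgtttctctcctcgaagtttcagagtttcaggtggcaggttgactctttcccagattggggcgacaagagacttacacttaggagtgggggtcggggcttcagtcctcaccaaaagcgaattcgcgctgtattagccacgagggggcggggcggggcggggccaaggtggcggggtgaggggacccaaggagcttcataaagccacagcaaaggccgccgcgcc
Each of the 3 held 1 ETS match, beginning 17, 86 and 243 bases before the start, and Gzmm also held a RUNX match 247 bases before it. Of the members, 30 had an entry in the promoter table, with 40 windows in all. The ETS letters occurred in 47.5% of these 40 windows and in 29.5% of all 32851 windows of this length, the RUNX letters in 30% and 14.0%, the T-box core GTGTGA in 22.5% and 12.3%, and the TCF/LEF letters CTTTGA in 10% and 13.8%. None of the 3 printed windows held the T-box or TCF/LEF letters. No 2 of the 4 motifs overlapped in them.

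The NK genes summed to 0.135 to 1.60 FPKM in vehicle libraries (median 0.777) and 1.03 to 1.30 FPKM with GA (median 1.15), with means of 0.835 ± 0.506 and 1.15 ± 0.102 FPKM (SD, n = 6 each, log2 ratio 0.47). The GA libraries were within a narrow band that lay inside the vehicle range, and all 6 exceeded the vehicle median. The log2 ratio was 0.22 in the Y-negative libraries, 0.24 without vehicle library 1 and 0.76 without vehicle library 2. Without Tbx21, a choice made after its values were seen, it was 0.23, with 4 of 6 GA libraries above the vehicle median. The steady sum was made of unlike parts, because Eomes, a T-box factor, supplied 0.728 of the 1.10 FPKM in GA library 6 and nothing in GA libraries 2 and 5.

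Tbx21 (T-bet, chromosome 11, 97098071 to 97115331), the T-box factor of type 1 effector cells, ran from 0 to 0.374 FPKM in vehicle libraries (median 0.112) and from 0.0763 to 0.670 FPKM with GA (median 0.290). Vehicle libraries 1 and 4 had no read, and 5 of 6 GA libraries exceeded the vehicle median. The log2 fold change was 0.97 (SE 0.47, unadjusted p = 0.0573 in limma, adjusted p = 0.999, exact permutation p = 0.0758), 0.82 in the Y-negative libraries and 0.78 without vehicle library 1. Eomes was uneven, with 80 of its 184 reads in GA library 6, where the NK receptor gene Klrd1 had 3 reads and Ncr1 had 6. Klrd1 (CD94) and Klrk1 (NKG2D) had means of 0.440 ± 0.344 and 0.134 ± 0.0646 FPKM in vehicle and of 0.460 ± 0.241 and 0.124 ± 0.0700 FPKM in GA libraries (SD, n = 6 each). Ncr1 (NKp46), which defines NK cells, had 2 reads over the vehicle and 11 over the GA libraries and none in 7 libraries, and Klrb1c, another NK marker outside the list, had none in 9. Transcripts that define NK cells were therefore near the detection limit, and Klrd1, Klrk1 and Tbx21 are also expressed by T cells.

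**Figure D4:**
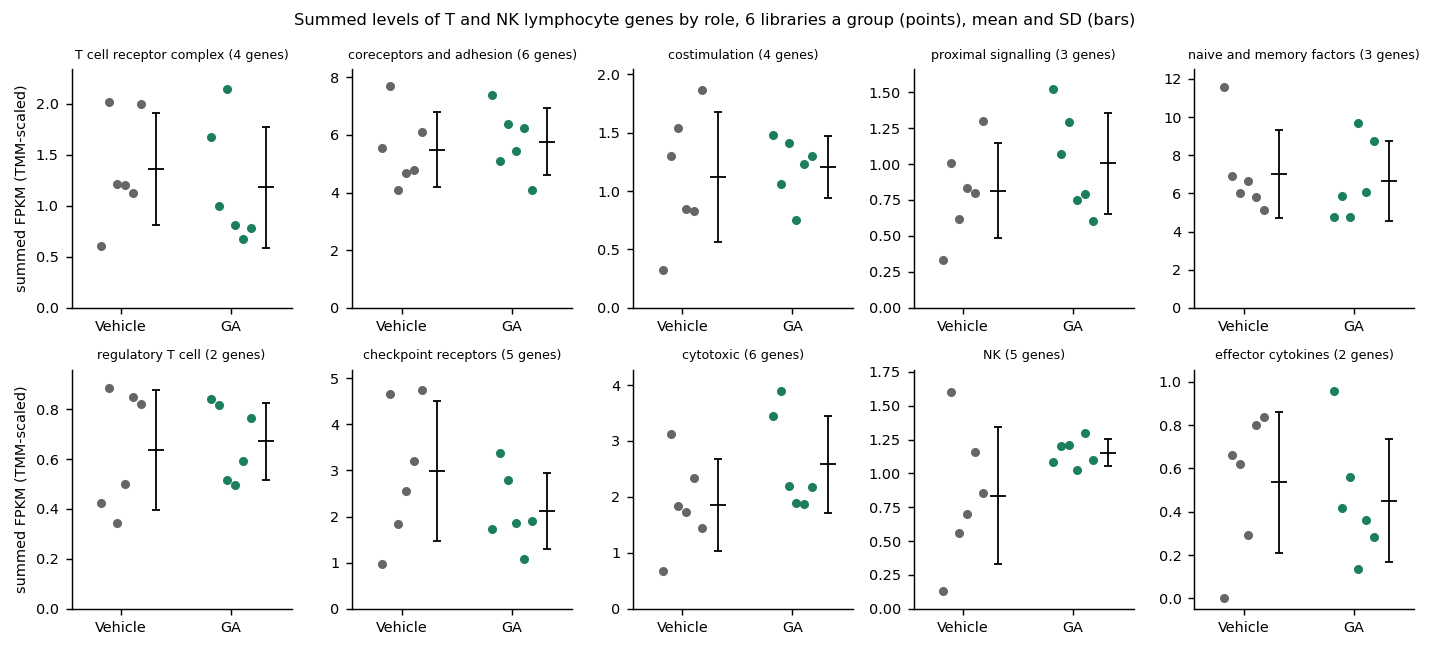
Summed FPKM of each role group (vertical axes, from 0) in 6 vehicle and 6 GA libraries (points), with the mean and SD beside them. The cytotoxic and NK sums of all 6 GA libraries lie above the vehicle median, the checkpoint sum of 1 does, and in every panel the 2 groups overlap.

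The list held 2 effector cytokines. Ccl5, a chemokine of activated T and NK cells, had means of 0.491 ± 0.321 FPKM in vehicle and 0.402 ± 0.259 FPKM in GA libraries (SD, n = 6 each), and no read in vehicle library 1. Ifng, interferon gamma, had 7 reads over the vehicle and 8 over the GA libraries. The groups overlapped for both genes. The log2 ratio of their sum was -0.25, and it was -1.22 in the Y-negative libraries, -0.61 without GA library 1 and -0.06 without GA library 4.

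**Figure D5:**
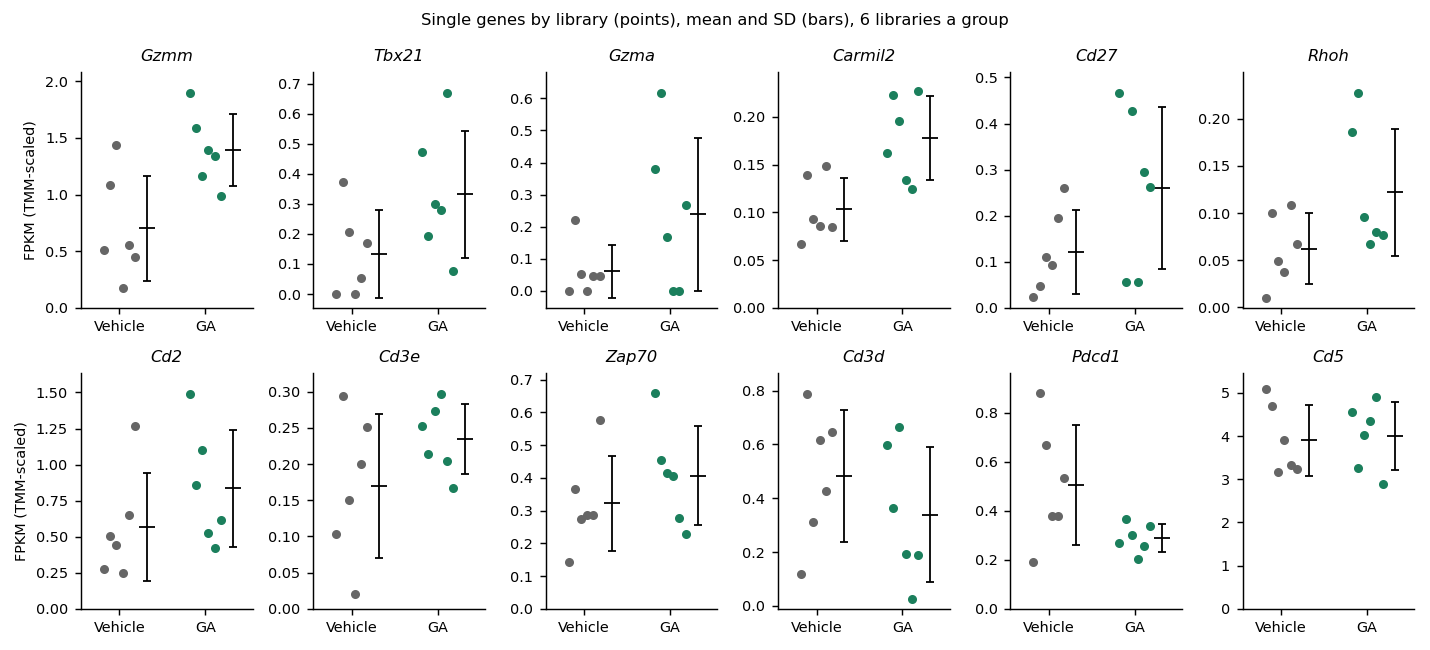
FPKM of 12 members (vertical axes) in 6 vehicle and 6 GA libraries (points), with the mean and SD beside them. They are the 10 tested members whose log2 fold change exceeded its standard error, with Rhoh and with Cd5 as an abundant gene. For Gzmm, 4 vehicle libraries lie below every GA library, and for Pdcd1 the GA libraries lie in the lower part of the vehicle range.

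Across all tested members, those most like Cd3e in rank over the 12 libraries were Cd8b1 (Spearman's rho 0.74), Ctla4 (0.73), Zap70 (0.70) and Tbx21 (0.69), and Tcf7 was the most unlike (-0.43). The libraries differed in depth, and vehicle library 1 was the lowest for many members, so these are descriptions over 12 points. Cd3e had r = 0.40 and rho = 0.42 with Cd8a (permutation p = 0.206 and 0.174), 0.48 and 0.49 with Cd4 (p = 0.119 and 0.1103), 0.40 and 0.36 with Nkg7 (p = 0.199 and 0.255), and 0.38 and 0.32 with the B cell gene Cd79a (p = 0.225 and 0.302; n = 12 and permutation tests throughout). Without vehicle libraries 1 and 4 these r were 0.29, 0.44, 0.40 and 0.06. They were 0.58, 0.62, 0.58 and 0.09 within vehicle and 0.15, -0.07, -0.02 and 0.36 within GA libraries. None of the 9 pairs passed an adjusted p of 0.05.

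Other genes of the same pathways, in lists written from general knowledge, gave no calls. Of 11 tested genes of T cell signalling 4 were higher and 7 lower with GA, of 11 cytotoxic and NK genes 3 and 8, of 9 trafficking receptors 3 and 6, of 11 helper lineage genes 4 and 7, of 14 genes for ligands of members 8 and 6, and of 9 T cell attracting chemokines 2 and 7. None of these tested genes had an unadjusted p below 0.05 in limma. Of the list genes below the limit for testing, Il13 and Trat1 had an exact permutation p below 0.05. Il13 was at 0 in every vehicle library and had a mean of 0.0953 FPKM with GA (exact permutation p = 0.0152). Trat1 had means of 0.00327 FPKM in vehicle and 0.0202 FPKM in GA libraries (exact permutation p = 0.0433). Neither p-value was adjusted. Cd274 (PD-L1), the ligand of PD-1, had means of 1.93 ± 0.857 FPKM in vehicle and 2.04 ± 0.899 FPKM in GA libraries (SD, n = 6 each).

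Marker lists of other cells also leaned one way in their mean log2 levels, by which their genes are counted here as higher or lower, with no gene called. The 5 pan-leukocyte genes were each lower with GA as means, summing to 12.2 to 55.6 FPKM in vehicle and 11.2 to 37.4 FPKM in GA libraries, and 12 of 12 neutrophil genes were lower, summing to 1120 to 2617 and 236 to 1849 FPKM. Most of that sum was S100a8 and S100a9, which keratinocytes also express (means of 662 and 1063 FPKM in vehicle, 457 and 762 FPKM in GA libraries), while Csf3r, the G-CSF receptor of neutrophils, was at 0.0293 to 16.1 and 0.0839 to 4.42 FPKM. B cell genes summed to 0.386 to 0.887 and 0.394 to 1.28 FPKM, with 3 of 4 tested genes higher, and Cd79a had a log2 fold change of 1.04 (SE 0.38, unadjusted p = 0.0181 in limma). Mast cell genes summed to 8.69 to 24.4 and 7.99 to 54.1 FPKM, with 7 of 9 higher. Genes of innate lymphoid and gamma-delta T cells summed to 14.2 to 45.7 and 11.7 to 33.1 FPKM, with 6 of 7 lower. Genes of oral epithelium were lower in mean log2 level in 6 of 6 (16843 to 38238 and 13820 to 25665 FPKM). However, Krt4 had a higher mean FPKM with GA (5027 against 4829 FPKM in vehicle). The median of the epithelial sum was also higher with GA (23959 against 22506 FPKM). Genes of skeletal muscle were higher in 4 of 5 (877 to 7578 and 1325 to 5697 FPKM). Of the other lists, 2 of 3 plasma cell, 6 of 9 macrophage, 5 of 8 dendritic cell and 5 of 5 gland genes were lower. The gland count rests on few libraries. Lipf, a gland gene, was at 22182 and 8134 FPKM in vehicle libraries 3 and 5 and at 26456 FPKM in GA library 2, but at most 0.504 FPKM in the others. Medians of the gland sum were 0.550 FPKM in vehicle and 0.521 FPKM in GA libraries. With the neutrophil score as a covariate, the 10 tested members with a printed fold change kept their direction and none was called, with log2 fold changes of 0.97 for Gzmm, 0.99 for Gzma, 0.78 for Tbx21, 0.53 for Carmil2, 0.32 for Cd3e, -0.35 for Cd3d and -0.55 for Pdcd1. The part of the other cell types in the members' differences was not tested.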

How the data were processed

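RNA from tongue tissue was sequenced in 12 libraries (6 vehicle, 6 GA), prepared with the SMARTER mRNA-Seq kit per the labels. The authors checked reads with FastQC v0.11.7, used HISAT2 for alignment to mm10, took uniquely mapped reads into featureCounts, and deposited FPKM values per gene and library. Since the deposited values are FPKM and not counts, the study's edgeR test was not the main test, and a model on recovered reads was run as an alternative.

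Of 55463 rows, 22965 had no gene name and were left out (16.2% to 25.5% of the summed FPKM of a library). Low values rose in steps of 1 read. With GENCODE M21 exon lengths less 17 to 24 bases, 97.6% to 98.3% of low values came out as whole reads (tolerance 0.02), which gave the totals. Reads of Tcf7 are uncertain because its length differed. Libraries were scaled by TMM (factors 0.906 to 1.08), and all FPKM in the text are scaled. The 16847 genes that averaged 0.1 FPKM or more were compared across all 12 libraries with limma 3.58.1 in R 4.3.3 (trend) on log2(FPKM + 0.1), with Benjamini-Hochberg adjustment over all of them. On this scale changes of scarce genes come out too small. The study's limits for a call were kept (adjusted p below 0.1, log2 fold change of 0.58 or more in either direction). Single genes were also tested with a two-sided exact permutation test over 924 assignments, which cannot give a p below 0.00216. Sums over members carry no test. Correlations used 100000 permutations. The test was checked on simulated data.

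The members and lists were chosen with earlier results of these data known. Fold changes are printed for members whose log2 fold change exceeded its standard error, and for Carmil2, Cd27, Gzmm and Rhoh. All members are named. Nothing says that libraries came from separate mice, so p-values measure the spread between libraries, which may be partly technical. Over genes, pairs of libraries in a group had Spearman's rho of 0.888 to 0.971 (vehicle) and 0.905 to 0.971 (GA). Alternatives were the pseudocount, filter, scaling, robust fitting, limma-voom on recovered reads, sex, neutrophil and T cell terms, and leaving out libraries. Promoter windows came from RefSeq (GRCm38.p6), exon models from GENCODE M21 (GRCm38). Python 3.11.15, with scipy 1.17.1 and pandas 2.3.3 was used.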

Additional observations from a re-analysis of the deposited data

Results flagged for a closer look

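Values were compared within each group of 6 libraries by Dixon's ratio, the gap between an extreme library and its neighbour over the whole range, at its 95% limit. Of 96 groups of values, 5 passed (5.21%), where chance gives about 1 in 20. Cd8b1 was at 1.22 FPKM in vehicle library 2, and the next vehicle library had 0.285 FPKM. Gzma was at 0.220 FPKM in that same library, from 4 reads, against at most 0.0516 FPKM in the other vehicle libraries. Cd28 was at 0.700 FPKM in vehicle library 3, and the next had 0.220 FPKM. Tcf7 was at 7.53 FPKM in vehicle library 1 with the next at 4.88 FPKM, and through it the sum of naive and memory factors reached 11.6 FPKM, with the next at 6.93 FPKM. The causes were not tested.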

How the results depend on the processing

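Of the values recomputed under an alternative, 492 kept their direction and their side of the limits or stayed within the replicate spread, 5 moved further and 3 reversed. In the 7 libraries without Y-linked reads (2 vehicle, 5 GA), 2 genes were called, neither a member. The log2 fold changes of Cd2 (-0.40), Cd27 (-0.20) and Zap70 (-0.20) reversed, and the log2 ratio of the naive and memory sum was 0.36. These values rest on 2 vehicle libraries. With a sex term (presence of Y-linked reads) over all 12 libraries, Cd2 (0.39), Cd27 (0.51) and Zap70 (0.27) kept their direction. In the Y-positive libraries (4 vehicle, 1 GA) their differences were 1.81, 1.78 and 1.09. Sums that stayed within the replicate spread also changed sign in the Y-negative libraries, though they count among the 492. They include costimulation (0.11 to -0.23), proximal signalling (0.30 to -0.22), regulatory T cell (0.08 to -0.39) and the T cell genes without Cd5 (0.08 to -0.38). At an unadjusted p below 0.05, 371 genes and 1 member passed in place of 0 and 0. When single libraries were left out, 0 to 1 genes were called, the 1 without vehicle library 4, and 0 members. Over all settings, Gzmm had an unadjusted p below 0.05 in 26 of 26 fits with a log2 fold change of 0.53 to 1.32, Carmil2 in 7 (0.09 to 0.79), Tbx21 in 5 (0.23 to 2.07, depending on the pseudocount), Cd2, Gzma and Havcr2 in 2 each, and Pdcd1 (-0.74 to -0.21) and Ccl5 in 1 each. These fits reuse the same libraries, from which the study had already named Gzmm and Carmil2, so the counts are not independent tests. The lowest adjusted p of Gzmm, Carmil2, Tbx21, Cd2, Gzma and Pdcd1 was 0.809. With limma-voom on recovered reads, 0 genes were called. With a replicate block, 0 genes were called and 250 had an unadjusted p below 0.05. Libraries with the same number correlated at -0.37 to 0.08, so the numbers did not pair them. Depth limits the members, as 31 of 35 tested lay below 1 FPKM, and Gzmk, Ncr1 and Ifng had 1, 13 and 15 reads in all.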

Other observations

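Cd79a, the B cell receptor chain CD79A, was at 0 in 3 vehicle libraries and at most 0.142 FPKM in the others, and at 0.0787 to 0.520 FPKM with GA, where all 6 libraries had reads (log2 fold change 1.04, SE 0.38, unadjusted p = 0.0181 in limma). Ms4a1, also a B cell gene, had a mean of 0.0118 FPKM with GA and 0.00243 FPKM in vehicle libraries. Areg, an EGFR ligand also made by innate lymphoid cells and keratinocytes, was at 5.49 to 21.1 FPKM in vehicle libraries and 1.56 to 9.85 FPKM with GA (log2 fold change -1.13, SE 0.51, unadjusted p = 0.0437 in limma). Their exact permutation p-values were 0.0216 for Cd79a and 0.0866 for Areg, and neither was called.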
